A study of Mus musculus with 16 samples.

Results

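Glucose uptake and glycolysis were followed through 10 genes, which were taken by name from the deposited gene table as the rows of Slc2a1, Slc2a3, Hk1, Hk2, Pfkl, Pfkp, Aldoa, Aldoc, Ldha and Ldhb, out of 27807 genes in the table. Each name had a single row, and all 10 genes passed the filter on low values, with mean levels from 990.0 normalised read counts for Aldoc to 70089.9 for Slc2a3. The rule uses no measured value, although the genes were proposed with earlier results of these data known. The highest group mean of each gene lay in embryoid bodies (EBs) at EB4 or EB5, in WT and in Taf4a-/- cells, with the 1 exception of Pfkp in WT, whose ES and EB4 means were 5569 and 5564 normalised counts. Genotypes differed at EB8, where Taf4a-/- cells held 3.55 times as much Slc2a3 and 3.14 times as much Ldhb as WT, and 1.94 times less Ldha. These 3 of the 10 genes passed the test there, a share close to the 22.9% of all genes tested. Each of these calls was lost on leaving out some single libraries.

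Glucose enters most cells through facilitative carriers of the Slc2a family, and hexokinase then traps it by adding a phosphate. Phosphofructokinase commits the sugar to glycolysis, aldolase splits it, and lactate dehydrogenase converts the pyruvate formed at the end into lactate while it restores NAD+. Pluripotent cells are known for a high rate of glycolysis, and several of these genes, among them Slc2a1, Hk2, Pfkl, Aldoa and Ldha, are textbook targets of the hypoxia-inducible transcription factor HIF-1.

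RNA with a poly-A tail was sequenced in 16 libraries of mouse ES cells and EBs, 2 libraries in each of 8 groups. The groups combine a genotype, WT (Taf4+/+) or Taf4a-/- (KO from here on), with a stage. Taf4a codes for Taf4, a core subunit of the general transcription factor TFIID, and KO cells are homozygous for a null allele that lacks internal exons and was kept on C57Bl6J mice. Lines were raised from blastocysts of heterozygous parents, 2 independent lines of each genotype, so that each genotype rests on few lines. ES cells grew on inactivated MEF feeders in high-glucose medium with serum and LIF. EB4 are aggregates collected before retinoic acid (RA), EB5 after the first day of RA, and EB8, labelled as neural precursor cells, at the end of the RA treatment.

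The promoters of the 10 genes were read for the core letters of the hypoxia response element. The motifs ACGTG and GCGTG were searched on both strands and with overlapping matches counted apart, in the 250 bases before each start site in RefSeq (build GRCm38.p6). The table held 14 promoters for 9 of the 10 genes, and Slc2a3 was not among them. Either motif occurred in 12 of the 14 promoters, against 38.6% of all 32851 promoters, and in at least 1 promoter of each of the 9 genes, against 41.5% of 27025 genes. Windows of 1 gene can overlap, as those of Aldoa do. ACGTG was found in 5 of the 14, against 16.6% of all promoters, while GCGTG is held by 28.2% of all. These are matches of letters and not binding sites. Several of the 10 genes are textbook targets of HIF-1 and all were chosen by name, so the counts are not a test of a link to HIF-1. Both motifs contain CG, and the 14 windows held 49.6 to 69.6% G and C. The promoters they are set against were not matched for base composition, and its part in the counts was not tested. The promoters printed here are those of 3 genes that were higher at EB4 than in ES cells in WT, Slc2a1, Pfkl and Ldha, and of Ldhb, the paralogue of Ldha that differed from it in direction between the genotypes, with the matches in capitals. The coordinates are those of GRCm38.p6, not those of the build of the expression table.
Slc2a1, chr4:119108495-119108744, plus strand: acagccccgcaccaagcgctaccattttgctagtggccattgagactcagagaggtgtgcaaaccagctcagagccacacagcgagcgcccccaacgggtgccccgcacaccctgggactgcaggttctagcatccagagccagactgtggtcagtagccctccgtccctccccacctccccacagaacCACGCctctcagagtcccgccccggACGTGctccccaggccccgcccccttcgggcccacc
Pfkl, chr10:78009808-78010057, minus strand: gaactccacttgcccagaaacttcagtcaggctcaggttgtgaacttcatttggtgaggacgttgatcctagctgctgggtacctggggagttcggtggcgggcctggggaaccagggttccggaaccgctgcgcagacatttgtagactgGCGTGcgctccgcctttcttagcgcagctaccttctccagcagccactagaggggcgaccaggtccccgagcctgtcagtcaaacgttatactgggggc
Ldha, first of 2 promoters, chr7:46845554-46845803, plus strand: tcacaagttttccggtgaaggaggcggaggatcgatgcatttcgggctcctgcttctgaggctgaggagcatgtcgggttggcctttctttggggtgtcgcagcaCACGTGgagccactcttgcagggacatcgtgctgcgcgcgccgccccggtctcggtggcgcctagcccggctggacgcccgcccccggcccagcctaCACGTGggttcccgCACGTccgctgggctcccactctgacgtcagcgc
Ldhb, chr6:142507958-142508207, minus strand: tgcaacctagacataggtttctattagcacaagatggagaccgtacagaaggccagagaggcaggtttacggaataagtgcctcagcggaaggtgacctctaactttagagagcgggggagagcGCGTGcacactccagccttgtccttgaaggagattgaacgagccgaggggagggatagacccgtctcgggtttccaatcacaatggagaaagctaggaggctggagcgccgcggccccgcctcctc
Ldha carried 5 matches of ACGTG in this promoter, as the palindrome CACGTG reads the same on both strands and was counted on each, and 1 match of GCGTG in its other promoter. Slc2a1 carried 1 match of each motif, and Pfkl and Ldhb 1 match of GCGTG each. Hk2 had 2 matches of ACGTG and Pfkp 3 of GCGTG in promoters not shown.

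The libraries held 22442118 to 40711826 reads, and all ES libraries (32631020 reads or more) were deeper than all EB libraries (27685306 or fewer). Where ES cells are compared with EBs, stage therefore cannot be told apart from a sequencing run that may have differed. Taf4a itself was not lower in KO (1972.8 to 2400.0 normalised counts against 1590.9 to 1959.6 in WT). A count per gene does not resolve the deleted exons, so that the labels are not checked by it. The level of a chromosome in a library is the median, over its genes, of the log2 deviation from each gene's mean, less the autosomal median. On chromosomes 4, 7, 10 and 13, which carry 6 of the 10 genes, it stayed within -0.09 to 0.12 in every library. Chromosome 6, with Slc2a3, Hk2 and Ldhb, ran from -0.25 to 0.10, and chromosome 11, with Aldoc, from -0.13 to 0.26, highest in KO replicate 1. Chromosome 8, which carries none of the 10 genes, stood at 0.38 to 0.40 in WT replicate 1 of all 3 EB stages but at -0.16 in WT ES replicate 1, and the X chromosome at 0.49 in WT ES replicate 2 but at -0.27 to -0.16 in the other 7 WT libraries. The labels do not say whether a WT ES library and the WT EB libraries of its number come from the same line, and each WT change from ES cells rests on these ES libraries. In KO the X chromosome stood at 0.37 to 0.56 in replicate 2 of all 4 stages and at -0.26 to -0.16 in replicate 1. These are bulk samples, in which fewer cells of a type and less RNA per cell cannot be told apart. The methods name 2 independent lines per genotype. In the main limma fit a p-value rests on the spread between the 2 libraries of a group, pooled over all 8 groups and moderated by the trend over all genes. It does not measure the spread of the compared groups alone. Same-numbered libraries deviated together across stages (correlations of 0.233 to 0.422 in KO and 0.523 to 0.605 in the WT EBs). The 8 residual degrees of freedom are therefore not 8 independent differences, and the p-values do not allow for this. KO against WT was not fitted with a replicate block within genotype.

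**Figure D1:**
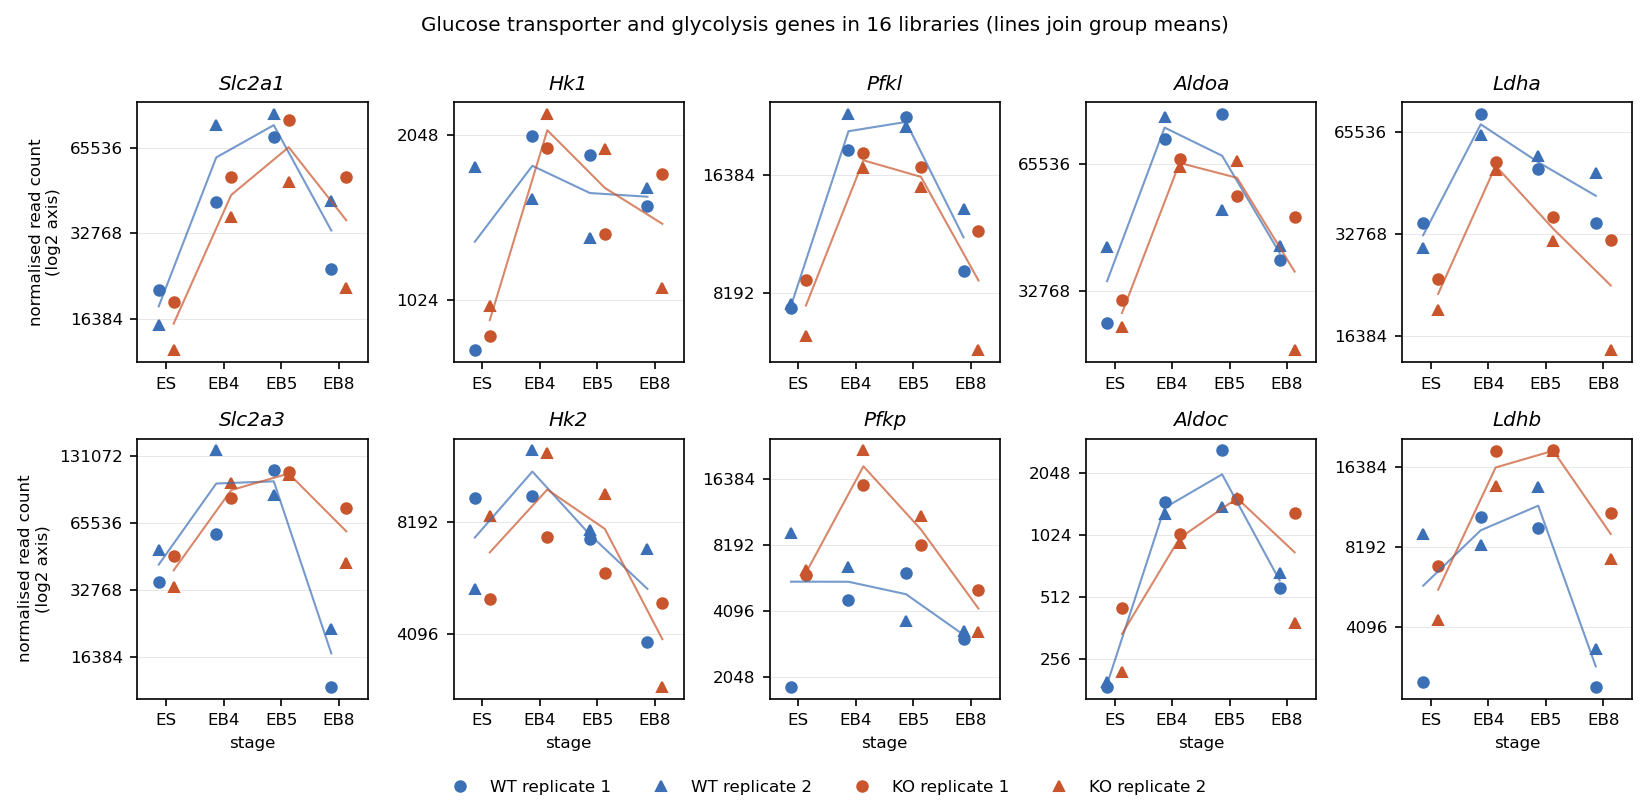
Normalised read counts (log2 axis) of the 10 genes at the 4 stages, 1 panel per gene, with circles for replicate 1, triangles for replicate 2 and lines through the group means of WT (blue) and KO (orange). The highest WT group mean lies at EB4 or EB5 in 9 of the 10 panels, and at EB8 Slc2a3 stands at 12020 and 21952 counts in WT, below both WT ES libraries.

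The first comparison follows the genes from ES cells to EB4, before RA. The log2 change was above 0 for all 10 genes in both genotypes, with a median of 1.09 in WT and 1.25 in KO, against -0.02 and -0.01 over the 16124 genes tested. In WT, 5 of the 10 passed the test as higher (limma with Benjamini-Hochberg adjustment over all genes tested, threshold 0.05), namely Slc2a1, Pfkl, Aldoa, Aldoc and Ldha, where 8.98% of all genes tested passed in that direction. In KO, Pfkl and Ldha passed, 2 of 10, where 2.51% of all genes did. The values of both EB4 libraries lay above those of both ES libraries for 7 of the 10 genes in WT and 9 in KO, an arrangement that 26.5% and 28.1% of all genes showed. These counts depended on the fit, more so in KO. DESeq2 on the recovered reads called 6 genes in WT and 9 in KO, all but Hk2 (1668 of all genes against 564 in limma there), while edgeR called 5 and 2. Same-numbered KO libraries deviated together at all stages, and with a replicate block within genotype, chosen after seeing the data, 5 passed in KO, Slc2a1, Pfkl, Aldoa, Aldoc and Ldha, where 1395 of the 16124 genes did in either direction. Fitted with the compared groups alone, 0 of the 10 passed in either genotype, where 0 of all 16124 genes passed in WT and 23 in KO. Without the filter or after quantile normalisation 0 of the 10 passed in KO, where 310 of 27807 and 361 of 16124 genes did. Leaving out 1 library gave 2 (without WT EB4 replicate 2) to 6 genes in WT and 0 in KO. Whether a change differed between the genotypes was tested as an interaction, and 0 of the 10 genes passed there, as did 0% of all genes tested, and 0 of the 10 had an unadjusted p below 0.05 (this interaction was run with limma alone).

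Gene positions are given on build NCBIM37 (mm9). Slc2a1 (ENSMUSG00000028645, chr4:118781316-118809935, plus strand) codes for GLUT1, the carrier that most dividing cells use for their basal glucose supply. It held 20611 and 15581 normalised counts in WT ES cells, 42195 and 79474 at EB4, 71589.7 and 86629 at EB5 and 24426 and 42658 at EB8. In KO its levels were 18786 and 12649 in ES cells, 52016 and 37598 at EB4, 82259.9 and 49974 at EB5 and 51872 and 21064 at EB8. Every EB4 library thus lay above every ES library of its genotype. The rise to EB4 was 3.23-fold in WT (log2 change 1.69, SE 0.44, limma adjusted p 0.0227) and did not pass in KO (1.52, SE 0.44, limma adjusted p 0.0775) unless fitted with the replicate block within genotype (0.00541) or with DESeq2 (0.0117), over a range of 0.00541 to 0.120 across the alternatives. The call in WT was lost without WT ES replicate 2 (limma adjusted p 0.102) or WT EB4 replicate 2 (0.154).

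Slc2a3 (ENSMUSG00000003153, chr6:122677827-122751658, minus strand) codes for GLUT3, a high-affinity carrier known from neurons and from early embryos, and had the highest mean count of the 10 genes. WT ES cells held 35488 and 49686 normalised counts, and the EB4 libraries 58387 and 138803, 2.38 times apart. At EB5 WT held 113805 and 87943. KO had 46470.0 and 33825 in ES cells, 85103 and 99066 at EB4 and 111382 and 107253 at EB5. The groups of ES cells and EB4 did not overlap in either genotype, but the log2 changes of 1.10 in WT and 1.21 in KO did not pass (limma adjusted p 0.0799 and 0.110, SE 0.40 for both). DESeq2 on the recovered reads passed it in both genotypes (0.0186 and 0.0370, over ranges of 0.0186 to 0.259 and 0.0370 to 0.169 across the alternatives).

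Neither Hk1 nor Hk2, the hexokinases among the 10 genes, passed at this step in limma. Hk1 (ENSMUSG00000037012, chr10:61731603-61842656, minus strand), the constitutive isoform, held between 829 and 1786 normalised counts in the 4 ES libraries and between 1562 and 2234 at EB4, and the WT groups overlapped. Its log2 change was 0.55 in WT (limma adjusted p 0.285) and 1.15 in KO (0.0817). It passed in KO with DESeq2 (adjusted p 0.0211, over a range of 0.0211 to 0.124 across the alternatives) and in WT without WT ES replicate 2 (log2 change 1.10, limma adjusted p 0.0466). Hk2 (ENSMUSG00000000628, chr6:82675019-82724448, minus strand), the inducible isoform found at the mitochondrial surface, held 5390 and 9475 counts in WT ES cells and 9631 and 12757 at EB4. In KO it held 5081 and 8474, then 7463 and 12561, which overlap. The log2 changes were 0.63 and 0.56 with limma adjusted p of 0.301 and 0.458. Per kb of exon Hk2 exceeded Hk1 in all 16 libraries, by 3.65 to 16.3 times.

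Of the 2 phosphofructokinase genes, Pfkl (ENSMUSG00000020277, chr10:77449692-77472828, minus strand), the liver-type subunit, rose in both genotypes. It held 7488 and 7692 normalised counts in WT ES cells and 18870.5 and 23349 at EB4, 2.77-fold higher (log2 change 1.47, SE 0.28, limma adjusted p 0.00565). KO went from 8839 and 6377 to 18575 and 17040.3, 2.37-fold higher (1.24, SE 0.28, limma adjusted p 0.0339). In WT the call was kept without any 1 of the 4 libraries, while in KO it was lost without any 1 of them, with limma adjusted p from 0.0844 to 0.236.
Pfkp (ENSMUSG00000021196, chr13:6579014-6648023, minus strand), the platelet-type subunit, passed in neither genotype in limma. The WT ES libraries stood 5.03 times apart, at 1848 and 9291 counts, and the WT EB4 libraries, at 4612 and 6515, fell between them. KO went from 5948 and 6264.5 to 15326 and 22072, with no overlap and a log2 change of 1.59 (SE 0.55, limma adjusted p 0.119), which DESeq2 called (1.61, adjusted p 0.0270, over a range of 0.0270 to 0.184 across the alternatives). The difference of the changes was 1.19 on the log2 scale (95% interval -0.50 to 2.87, limma adjusted p 0.797). Without WT ES replicate 1 the WT log2 change went from 0.40 to -0.76, and without WT ES replicate 2 to 1.57 (limma adjusted p 0.0187).

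Among the aldolases, Aldoa (ENSMUSG00000030695, chr7:133938748-133944265, minus strand), the main glycolytic form, held 27637 and 41635 normalised counts in WT ES cells and 75338 and 84686 at EB4, 2.35-fold higher (log2 change 1.24, SE 0.32, limma adjusted p 0.0220). KO went from 31332 and 26910.5 to 67437 and 64549.9, with a log2 change of 1.18 that did not pass (limma adjusted p 0.0618) unless fitted with the replicate block within genotype (0.0420) or with DESeq2 (0.00937), over a range of 0.00937 to 0.101 across the alternatives. The WT call was lost without WT ES replicate 1 (0.120), WT EB4 replicate 1 (0.0625) or WT EB4 replicate 2 (0.102).
Aldoc (ENSMUSG00000017390, chr11:78136470-78141283, plus strand), the brain-type aldolase known from astrocytes and Purkinje cells, had the widest range of the 10 genes, 9.84-fold between its highest and lowest group mean. WT ES cells held 188 and 199 counts, EB4 1482 and 1288, EB5 2624 and 1399 and EB8 566 and 666. The rise to EB4 was 7.10-fold in WT (log2 change 2.83, SE 0.48, limma adjusted p 0.00334), and this call held without any 1 of the 4 libraries. KO went from 456 and 223 counts to 1039.7 and 934, a log2 change of 1.62 that missed the threshold (limma adjusted p 0.0802). It passed with the replicate block of the labels (0.0465), with the block within genotype (0.0283) and with DESeq2 (0.0187), over a range of 0.0187 to 0.135 across the alternatives. KO replicate 1 carried the higher chromosome 11 level at every stage (0.17 to 0.26), and its part in the Aldoc values was not tested.

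Lactate dehydrogenase is made of A and B subunits, and the A form is usually tied to lactate production and the B form to lactate use. Ldha (ENSMUSG00000063229, chr7:54096845-54110997, plus strand) held 35257 and 29858 normalised counts in WT ES cells and 74088 and 64069.7 at EB4, 2.12-fold higher (log2 change 1.09, SE 0.28, limma adjusted p 0.0228). KO went from 24149 and 19562.5 to 53609.8 and 50577, 2.40-fold higher (1.26, SE 0.28, limma adjusted p 0.0339). Neither pair of groups overlapped, although the WT call was lost without WT ES replicate 2 (0.0970), WT EB4 replicate 1 (0.102) or WT EB4 replicate 2 (0.0639), and the KO call without any 1 of its 4 libraries (0.105 to 0.219).
Ldhb (ENSMUSG00000030246, chr6:142438769-142456477, minus strand) held 2544 and 9182 counts in the WT ES libraries, a 3.61-fold gap, and 10649.6 and 8316 at EB4, which overlap (log2 change 0.96, limma adjusted p 0.173). KO went from 6965 and 4358 to 18826 and 13891, with no overlap (1.55, SE 0.46, limma adjusted p 0.0833), and passed there with DESeq2 (0.0150, over a range of 0.0150 to 0.13 across the alternatives). As for Pfkp, the WT value depended on the ES libraries, with a log2 change of 0.04 without WT ES replicate 1 and of 1.89 without WT ES replicate 2 (limma adjusted p 0.00856). Ldha and Aldoa have processed copies elsewhere in the mouse genome, and reads shared with such copies make their counts uncertain.

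**Figure D2:**
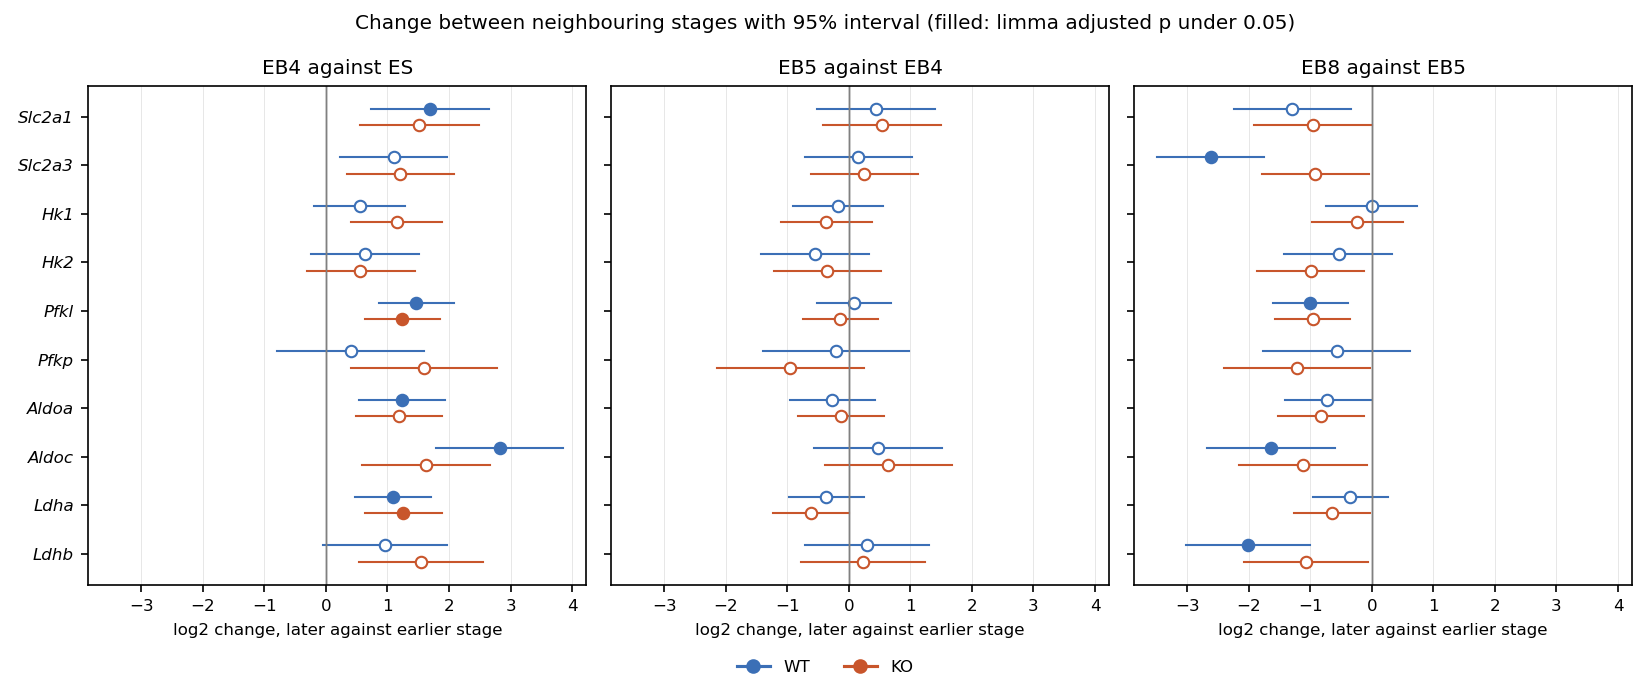
Log2 change between neighbouring stages for the 10 genes in WT (blue) and KO (orange), with 95% intervals from limma and filled points where the adjusted p was under 0.05. The step from ES cells to EB4 lies above 0 for all 10 genes in both genotypes, the step to EB5 has 0 filled points, and the step to EB8 lies at or below 0 with 4 filled points in WT and 0 in KO.

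The first day of RA, from EB4 to EB5, left no call among the 10 genes in either genotype, where 3.73% of all genes tested passed in WT and 2.51% in KO. At an unadjusted p below 0.05, 0 genes in WT and 1 in KO, Ldha, stood apart. Log2 changes ran from -0.55 for Hk2 to 0.47 for Aldoc in WT and from -0.95 for Pfkp to 0.64 for Aldoc in KO. The 2 glucose carriers, Aldoc and Ldhb had positive values in both genotypes, while Hk1, Hk2, Pfkp, Aldoa and Ldha had negative ones in both. This step was not run with other tools or with a replicate block.

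The step from EB5 to EB8 covers the rest of the RA treatment. Of the 10 genes, 4 passed as lower in WT, Slc2a3, Pfkl, Aldoc and Ldhb, where 4.62% of all genes tested passed in that direction, and 0 passed as higher. In KO 0 of 10 passed, where 0.738% of all genes passed in either direction, and edgeR and DESeq2 also called 0 of the 10. At an unadjusted limma p below 0.05, 8 of the 10 had a negative change in KO. A share of all genes at that unadjusted threshold is not given, and the 0.738% does not apply to it. With the replicate block within genotype 5 passed in WT, Slc2a1 (log2 change -1.29, limma adjusted p 0.00321 in place of 0.0871) besides these 4, and 1 in KO, Pfkl (-0.96, 0.0391 in place of 0.151). Both EB8 libraries lay below both EB5 libraries for 9 of the 10 genes in WT and 7 in KO, against 26.1% and 23.5% of all genes.
Slc2a3 had the largest change of the 10 genes in WT. It went from 113805 and 87943 normalised counts in WT EB5 to 12020 and 21952 in WT EB8, 6.16-fold lower (log2 change -2.62, SE 0.40, limma adjusted p 0.00184), and the call held without any 1 of the 4 libraries. In KO it went from 111382 and 107253 to 76922 and 43334, a log2 change of -0.92 that did not pass (SE 0.40, limma adjusted p 0.353). The difference between these changes was 1.70 on the log2 scale (95% interval 0.47 to 2.94, limma adjusted p 0.264), and 0 of the 10 genes passed as an interaction at this step, where 0.781% of all genes did.
Ldhb went from 9633 and 13849.6 counts in WT EB5 to 2438 and 3381 in WT EB8, 4.02-fold lower (log2 change -2.01, SE 0.46, limma adjusted p 0.0170). In KO it went from 18958 and 18878 to 10975 and 7395 (-1.07, limma adjusted p 0.351). The groups did not overlap in either genotype, and the WT call was lost without any 1 of the 4 WT libraries (0.0558 to 0.106).
Aldoc was 3.12-fold lower at WT EB8 than at WT EB5 (log2 change -1.64, SE 0.48, limma adjusted p 0.0474) and Pfkl 2.00-fold lower (SE of the log2 change 0.28, 0.0408). Both calls were close to the threshold, and both were lost without the filter (0.0726 for Aldoc and 0.0646 for Pfkl). Aldoc lost its call without WT EB5 replicate 1 (0.329), WT EB8 replicate 1 (0.182) or WT EB8 replicate 2 (0.147), and Pfkl without any 1 of the 4 libraries (0.0600 to 0.237). Hk1 had a log2 change of 0.00 at this step in WT (95% interval -0.74 to 0.73).

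At EB8 the summed level of the genes in WT was near that of ES cells. The 10 genes took 0.48% and 0.61% of all normalised counts in WT ES cells, 1.02% and 1.52% at EB4, 1.43% and 1.24% at EB5 and 0.48% and 0.71% at EB8. In KO the shares were 0.50% and 0.41%, 1.16% and 1.11%, 1.32% and 1.24%, and then 1.02% and 0.52%. Between EB8 and ES cells 2 of the 10 genes passed in WT, Slc2a3 as lower (log2 change -1.37, SE 0.40, limma adjusted p 0.0143) and Aldoc as higher (1.66, SE 0.48, 0.0131), where 46.8% of all genes tested passed. In KO 0 of 10 passed, where 37.7% of all genes did, while edgeR, DESeq2 and limma with the replicate block within genotype each called 2, Slc2a1 and Aldoc, both higher at EB8 (limma adjusted p 0.00249 and 0.0282 with the block, 0.0669 and 0.0759 without it). The Slc2a3 call in WT was lost without WT ES replicate 2 (limma adjusted p 0.0920) or WT EB8 replicate 1 (0.133), and the Aldoc call without WT ES replicate 1 (0.0529) or WT EB8 replicate 2 (0.07).

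The 2 libraries of an EB8 group differed in the same direction for every gene. All 10 genes were higher in KO EB8 replicate 1 than in KO EB8 replicate 2, by 1.48-fold (Ldhb) to 3.38-fold (Aldoc) with a median of 1.89-fold, and all 10 were higher in WT EB8 replicate 2 than in WT EB8 replicate 1, by 1.08 to 1.83-fold. Earlier groups did not split in this way, with 3 to 7 of the 10 genes higher in replicate 1. The hypoxia response list moved with it, as 17 of its 19 genes were higher in KO EB8 replicate 1 than in replicate 2 and 17 of 19 were higher in WT EB8 replicate 2 than in replicate 1. Its summed level was 81060 against 39057 normalised counts in KO EB8 and 45933 against 73991 in WT EB8. The share of all genes tested that split in this way is not given, so the split is not shown to be particular to these genes. The part of the split and of the hypoxia response list in the results at EB8 was not tested.

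**Figure D3:**
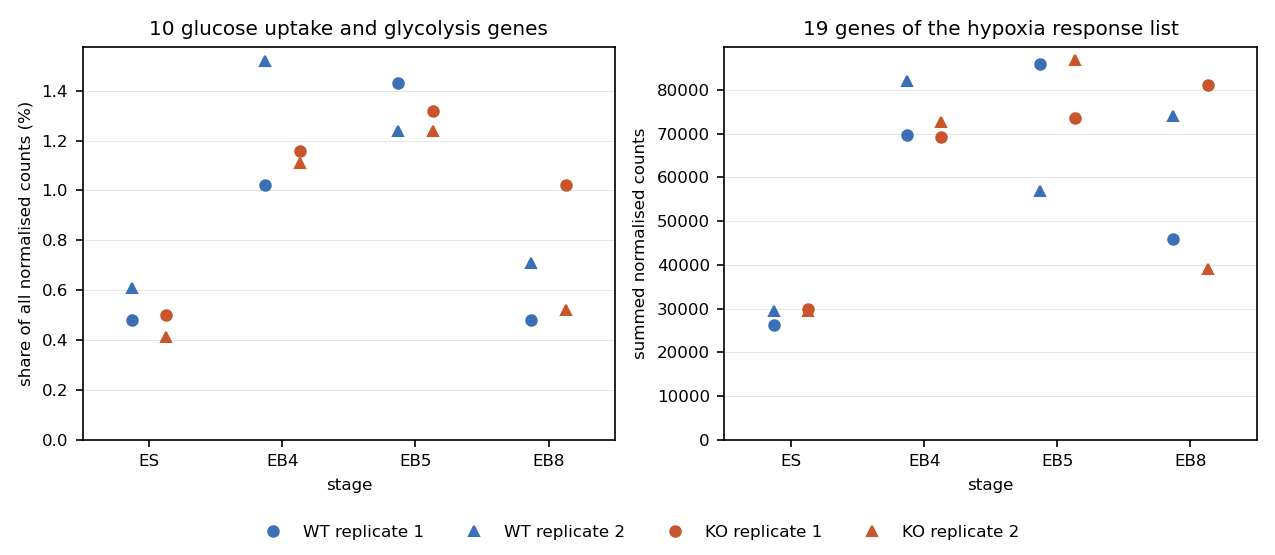
Left, share of all normalised counts (%) that the 10 genes took in each library. Right, summed normalised counts of the 19 genes of the hypoxia response list, with circles for replicate 1 and triangles for replicate 2. ES cells lie at 0.41 to 0.61% and at 26339 to 29909 counts, and at EB8 KO replicate 1 and WT replicate 2 stand above the other library of their group in both panels.

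The comparison of KO with WT asks whether the inactivation of Taf4a changed these genes at a given stage. In ES cells 0 of the 10 genes passed, as did 0% of all genes tested, and 0 had an unadjusted p below 0.05. At EB4 0 of 10 passed, where 6.12% of all genes did, and at EB5 0 of 10, where 4.34% did. At EB8 3 of 10 passed, Slc2a3 and Ldhb as higher and Ldha as lower in KO, where 22.9% of all genes tested passed (10.4% higher and 12.5% lower), a share close to that among the 10 genes. edgeR and DESeq2 called the same number at ES, EB5 and EB8, and at EB4 DESeq2 called 1 gene, Pfkp.

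For Slc2a3 the 2 genotypes overlapped until EB5. In ES cells, at EB4 and at EB5 the KO values overlapped those of WT, with log2 changes of -0.08, 0.03 and 0.13. At EB8 WT held 12020 and 21952 normalised counts, the lowest of all 8 groups, and KO 76922 and 43334, with no overlap, as for 63.9% of all genes tested. KO was 3.55-fold higher (log2 change 1.83, SE 0.40, limma adjusted p 0.00676). Without WT EB8 replicate 1 the log2 change was 1.40 (limma adjusted p 0.0654), and without KO EB8 replicate 1 it was 1.42 (0.0692), while the call was kept without either of the other 2 libraries and under 11 of 11 alternatives that used all libraries. The change from ES cells to EB8 differed between the genotypes by 1.91 (95% interval 0.68 to 3.15), which missed the threshold (limma adjusted p 0.0606, range 0.0120 to 0.0931 over the alternatives), and 0 of the 10 genes passed in this interaction, where 7.29% of all genes did. Slc2a3 passed with upper-quartile rescaling (0.0410), quantile normalisation (0.0437) and DESeq2 (0.0120), and without WT ES replicate 1 (0.0495). In the order of its group means KO EB5, WT EB5, WT EB4 and KO EB4 each overlapped the next, although KO EB5 lay wholly above KO EB4. KO EB8 followed, below KO EB4, and overlapped WT ES, which overlapped KO ES, and WT EB8 came last without overlap.

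Slc2a1, the other carrier, did not pass at EB8. There WT held 24426 and 42658 normalised counts and KO 51872 and 21064, so that the KO libraries enclosed those of WT (log2 change 0.03, 95% interval -0.92 to 0.99, limma adjusted p 0.968). Without KO EB8 replicate 1 the log2 change was -0.62, and without KO EB8 replicate 2 it was 0.68. Per kb of exon the ratio of Slc2a3 to Slc2a1 was 0.584 and 0.810 in KO EB8 against 0.194 and 0.203 in WT EB8, and from 0.400 to 1.256 in the 12 libraries of earlier stages.

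Both KO libraries lay above both WT libraries for Ldhb from EB4 on. At EB4 KO held 18826 and 13891 normalised counts against 10649.6 and 8316 of WT, and at EB5 18958 and 18878 against 9633 and 13849.6. At EB8 KO held 10975 and 7395 against 2438 and 3381 of WT. The groups did not overlap at any of these 3 stages, an arrangement that 51.9%, 54.9% and 63.9% of all genes showed, and they overlapped in ES cells. The log2 changes of 0.78 at EB4 and 0.71 at EB5 did not pass (limma adjusted p 0.348 and 0.420), and at EB8 KO was 3.14-fold higher (1.65, SE 0.46, limma adjusted p 0.0230). This call was lost without WT EB8 replicate 1 (0.128), WT EB8 replicate 2 (0.0588) or KO EB8 replicate 1 (0.143). The change from ES cells to EB8 differed by 1.46 between genotypes (95% interval 0.03 to 2.89) with a limma adjusted p of 0.191, and by 2.39 (limma adjusted p 0.00977) without WT ES replicate 1.

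Ldha lay on the other side. Both KO libraries lay below both WT libraries at each of the 4 stages, at 24149 and 19562.5 normalised counts against 35257 and 29858 in ES cells, 53609.8 and 50577 against 74088 and 64069.7 at EB4, 36813 and 31204 against 51073 and 55774 at EB5 and 31399.8 and 14905 against 35332 and 49746.5 at EB8. Of all genes tested, 39.7% did not overlap in ES cells, 51.9% at EB4, 54.9% at EB5 and 63.9% at EB8, in either direction. The share of genes set apart at all 4 stages is not given. The log2 changes were -0.58, -0.40, -0.66 and -0.95, of which the last passed (SE 0.28, 1.94-fold lower in KO, limma adjusted p 0.0294). At ES, EB4 and EB5 the limma adjusted p was 0.466, 0.432 and 0.211. The EB8 call depended on single libraries: the log2 change was -0.71 without WT EB8 replicate 2 (limma adjusted p 0.197) and -0.42 without KO EB8 replicate 2 (0.264), and it was lost with quantile normalisation (0.0517) and in a fit of the compared groups alone (0.129). Libraries of different stages come from few lines, so that the stages are not independent of each other.

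The ratio of the B to the A subunit gives both genes together. Per kb of exon the ratio of Ldhb to Ldha was 0.273 and 0.247 in WT EB4 against 0.667 and 0.522 in KO EB4, 0.358 and 0.472 against 0.978 and 1.149 at EB5, and 0.131 and 0.129 against 0.664 and 0.942 at EB8. Every KO EB library had a higher ratio than every WT library of its stage. In ES cells the WT libraries, at 0.137 and 0.584, enclosed those of KO at 0.548 and 0.423. The ratio is a description and carries no test. Lengths are the union of annotated exons, so that the level of a ratio depends on the annotation, but not its difference between libraries.

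**Figure D4:**
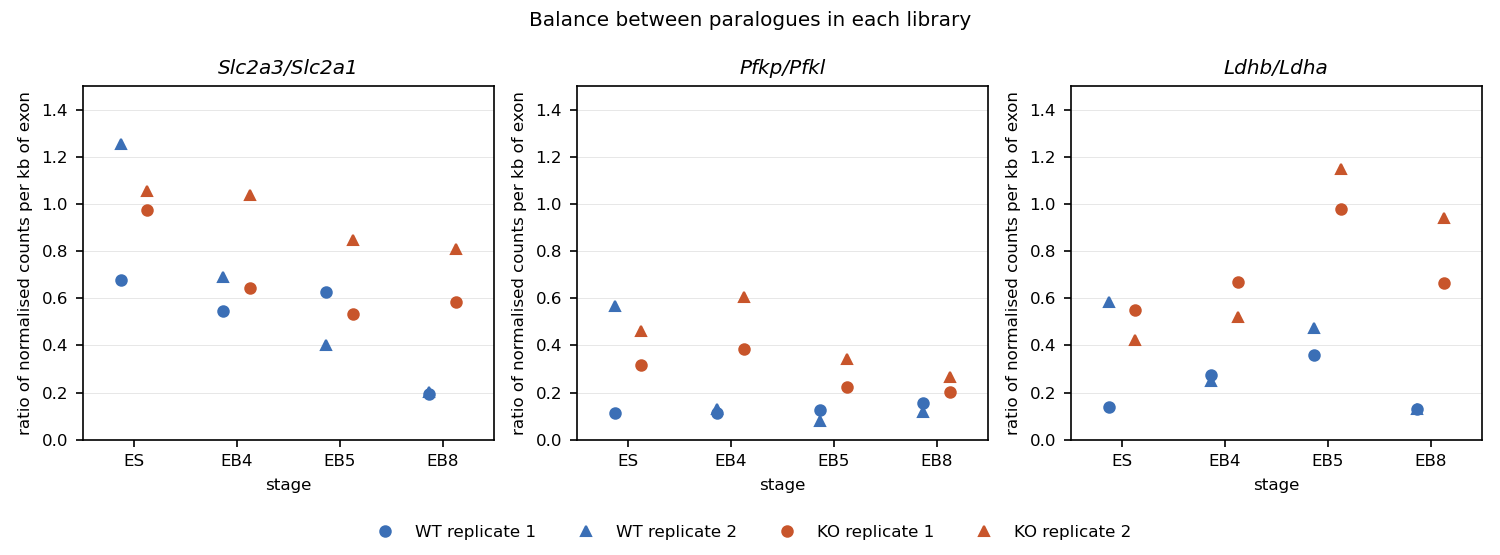
Ratio of normalised counts per kb of exon within 3 pairs of paralogues, in each library at the 4 stages, with circles for replicate 1, triangles for replicate 2, WT in blue and KO in orange. KO EBs lie above WT EBs of the same stage for Ldhb/Ldha and Pfkp/Pfkl, and Slc2a3/Slc2a1 is lowest in WT EB8 at 0.194 and 0.203.

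Neither phosphofructokinase passed between the genotypes at any stage in limma. Pfkp held 15326 and 22072 normalised counts in KO EB4, 3.35-fold more than the 4612 and 6515 of WT EB4, without overlap. That difference did not pass (log2 change 1.75, SE 0.55, limma adjusted p 0.0794), with p from 0.0119 to 0.141 over the alternatives, of which DESeq2 on the recovered reads called it (0.0119). At EB5 KO held 8188 and 11073 against 6086 and 3679 in WT, again without overlap (1.01, limma adjusted p 0.324), and at EB8 the groups overlapped (0.36). Of all genes tested, 51.9% did not overlap at EB4 and 54.9% at EB5. Pfkl lay the other way, below WT in both KO libraries at EB4 (log2 change -0.24) and EB5 (-0.47), and at EB8 by -0.43 with overlapping groups. Without KO EB8 replicate 1 the EB8 value was -0.93 and passed (limma adjusted p 0.0307). The ratio of Pfkp to Pfkl per kb of exon was 0.114 and 0.131 in WT EB4 against 0.386 and 0.606 in KO EB4, 0.124 and 0.079 against 0.224 and 0.341 at EB5, and 0.154 and 0.116 against 0.203 and 0.264 at EB8. Every KO value exceeded every WT value of its stage in the EBs, whereas the ES libraries overlapped. The share of other gene pairs set apart in this way is not given.

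The hexokinases Hk1 and Hk2 and both aldolases did not pass between the genotypes at any stage in limma. For Hk1 the log2 changes were between -0.37 and 0.22, and for Hk2 between -0.44 and 0.01, with overlapping groups at each stage. At EB8 Hk2 stood at 4965 and 2943 normalised counts in KO against 3879 and 6929.7 of WT, and its 95% interval ran from -1.31 to 0.44. Aldoa had log2 changes of -0.28 to -0.13, and its KO libraries lay below those of WT at EB4. Of all genes tested, 51.9% did not overlap at EB4 and 39.7% in ES cells. Aldoc lay above WT in both KO libraries in ES cells (456 and 223 counts, with 188 and 199 in WT), by 0.72 on the log2 scale (limma adjusted p 0.618), and below at EB4 (1039.7 and 934, with 1482 and 1288 in WT), a log2 change of -0.49 (0.587). At EB8 it held 566 and 666 in WT and 1302 and 386 in KO, where the KO libraries stood 3.38 times apart.

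**Figure D5:**
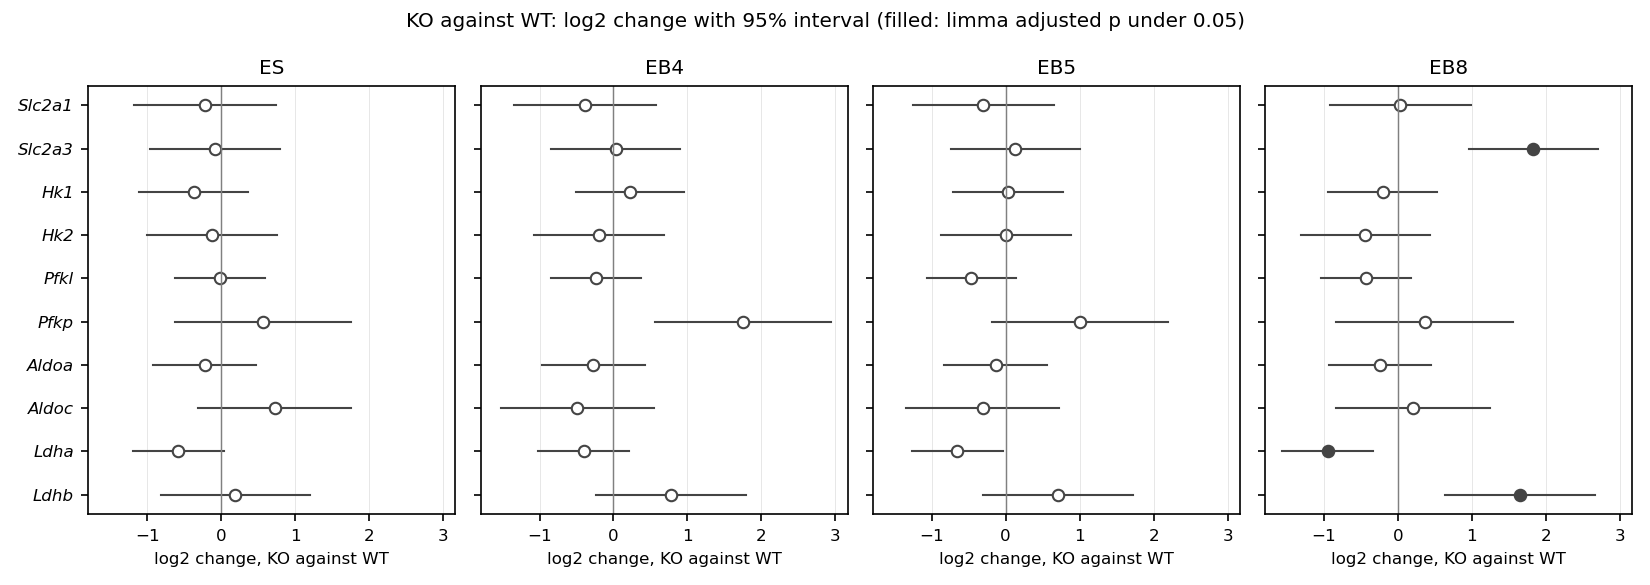
Log2 change of KO against WT for the 10 genes at ES, EB4, EB5 and EB8, with 95% intervals from limma and filled points where the adjusted p was under 0.05. Filled points occur at EB8, where Slc2a3 (1.83) and Ldhb (1.65) lie above 0 and Ldha (-0.95) below.

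Markers of cell types moved with genotype at EB8. The EB8 libraries are labelled as neural precursor cells, and the 4 neural progenitor markers found summed to 18715 and 14153 normalised counts in WT EB8 but to 3686 and 3679 in KO EB8, with 3 of 4 lower past the threshold. The 5 pluripotency markers summed to 24218 and 23109 in KO EB8 against 4702 and 6287 in WT EB8, with 4 of 5 higher, and the 3 neuron markers to 11659 and 14240 in WT against 867 and 1364 in KO, with all 3 lower. This neuron list is not specific to neurons here, as it summed to 7497 to 9709 in the ES libraries. Stmn2 was lower in WT EB8 (1468 and 1799) than in WT ES cells (5303 and 6491), while Tubb3 and Dcx were higher. Pax6, a defining neural progenitor marker, held 838 and 361 counts in KO EB8 against 5447 and 5317 in WT EB8, and Pou5f1, a defining pluripotency marker, 3218 and 3690.0 against 193 and 260.5. Of the visceral endoderm markers tested 1 of 2 was lower, and the list summed to 933 and 956 (WT) against 485 and 342 (KO). Of the 7 feeder fibroblast markers tested 0 passed (2180 and 3151 against 913 and 3321), and of the 3 cardiac mesoderm markers tested 0 passed (78 and 113 against 691 and 152). No marker of these lists was at 0 in both libraries of an EB8 group. The part of these cell types in the differences of Slc2a3, Ldhb and Ldha was not tested.

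Other genes of the pathway were counted in the same fit. Of 17 other glycolytic enzymes and sugar carriers tested, 4 were higher and 0 lower at EB4 than in ES cells in WT, with a median log2 change of 0.53, and 2 were higher in KO (median 0.73), where 8.98% and 2.51% of all genes tested passed as higher. Those of WT were Gpi1 (log2 change 1.11), Tpi1 (1.52), Pgk1 and Eno2 (2.13), and those of KO Tpi1 (1.27) and Pgk1, all but Pgk1 named after their values were seen. Pgk1, phosphoglycerate kinase, went from 11514 and 21746 normalised counts to 34919 and 43120.3 in WT (log2 change 1.29, SE 0.32, limma adjusted p 0.0186) and from 14041 and 17767 to 36705 and 60434 in KO (1.58, 0.0253). Pgk1 lies on the X chromosome, whose level stood at 0.49 in WT ES replicate 2 and at 0.56 in KO EB4 replicate 2. These libraries held more Pgk1 than the other library of their group, and the part of the X level was not tested. Gapdh, which takes the step before Pgk1, had log2 changes of 0.32 and 0.28 that did not pass (0.349 and 0.520), and Pkm2, pyruvate kinase, of 0.47 and 0.30 (0.199 and 0.519). At EB8 KO against WT gave 1 higher and 1 lower of these 17, a smaller share than the 22.9% of all genes tested. Hk3, a further hexokinase, was the lower one, at 6.3 and 2.1 counts in KO against 748 and 917 of WT (limma adjusted p 4.3e-05, log2 change -7.44 with SE 0.69), and Pklr, the liver and red cell pyruvate kinase, the higher, at 31.7 and 19.2 against 3.2 and 3.2 (limma adjusted p 0.00725, log2 change 2.62).

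Genes that handle pyruvate and lactate or set the fructose 2,6-bisphosphate level (PFKFB) passed in both directions. Of 17 tested, 2 were higher at EB4 than in ES cells in WT, the pyruvate dehydrogenase kinases Pdk1 (log2 change 1.43) and Pdk2 (1.72), and 3 were lower, the pyruvate dehydrogenase genes Pdha1 (-0.59) and Pdhb (-1.04) and the mitochondrial pyruvate carrier gene Brp44l (-1.93). They were named after their values were seen, and 0 of the 17 passed in KO. Of all genes tested 8.98% passed as higher and 7.57% as lower in WT. At EB8 2 of the 17 passed, again a smaller share than the 22.9% of all genes. There Pdha1, a subunit of pyruvate dehydrogenase, was lower in KO (2023 and 2223 normalised counts against 3979.9 and 3922 of WT, a log2 change of -0.90 with SE 0.17, limma adjusted p 0.00348) and Pfkfb1 higher (514 and 522 against 257 and 194, 1.21, SE 0.35, 0.0269). Both genes lie on the X chromosome, whose level at EB8 stood at 0.41 in KO replicate 2 and at -0.26 in KO replicate 1. The part of that level in these values was not tested. Of the 7 genes of the pentose phosphate branch 1 was higher at EB4 than in ES cells in WT (Pgls, 1.34) and 3 lower (Pgd -0.63, Rpe -0.89, Taldo1 -0.69), likewise named after their values were seen, and 0 passed in KO. At EB8 3 of the 7 passed. Tkt, transketolase, was lower in KO (5322 and 5781 against 11849.5 and 11358.5 of WT, log2 change -1.06, SE 0.16, limma adjusted p 0.000717), while Taldo1, transaldolase, was higher (0.63, 0.0107), as was Rpia (1.65, 0.0354), whose KO libraries stood at 921 and 4008.5 counts.

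The hypoxia response list was also higher at EB4 than in ES cells. It holds genes known to respond to low oxygen or to HIF-1, and also Hif1a, Epas1, Arnt and Vhl, which act in that response. Of its 19 genes 11 were higher and 1 lower in WT (Epas1, -3.89, named after its values were seen), with a median log2 change of 1.70. In KO 8 were higher and 0 lower, with a median of 2.09. Of all genes tested 8.98% passed as higher and 7.57% as lower in WT, and 2.51% as higher in KO. The summed level of the list went from 26339 and 29417 normalised counts to 69653 and 82056 in WT and from 29909 and 29367 to 69197 and 72680 in KO. The part of hypoxia in the values of the 10 genes was not tested. Hif1a, the oxygen-regulated subunit of HIF-1, held 4220 to 6769 counts over all 16 libraries, with log2 changes of 0.11 in WT and -0.06 in KO at this step (limma adjusted p 0.697 and 0.879). HIF-1 is regulated mainly through the stability of this protein, which RNA does not show. At EB8 2 of the 19 genes were lower in KO, Egln1 (log2 change -1.04, SE 0.33, limma adjusted p 0.0396) and Mxi1 (-1.55, SE 0.32, 0.00489), and 0 were higher, where 12.5% of all genes tested were lower and 10.4% higher.

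The pattern of Aldoc, the gene of widest range, was most like that of Dnajc10, Grin1, Osbpl1a, Dgkh and Tube1, with Pearson correlations of 0.99, 0.988, 0.978, 0.974 and 0.97 over the 8 group means of log2 values. The points share the normalisation of the table, and 8 points are few for a choice among 16124 genes. Grin1, which codes for an NMDA receptor subunit, had group means of 7.3 normalised counts in WT ES cells, 245 at EB4, 529 at EB5 and 67.0 at EB8, while those of Dnajc10 lay between 3481 and 4478 counts in all 8 groups.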

How the data were processed

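Poly-A RNA of 16 libraries of mouse ES cells and EBs was sequenced as single-end reads, 2 libraries for each of 8 genotype and stage groups taken from the labels. The values are normalised counts per gene that the authors deposited as 1 table, a signal obtained by dividing read counts by a size factor per library. The submitters' processing notes name CASAVA 1.7 and 1.8, TopHat2 2.0.10, HTSeq 0.5.4p3 and DESeq2 1.0.19 and the builds mm9 and NCBI37. Strand use in counting and the annotation release are not given in the sources used here. Dividing each column by the value of 1 read (0.715 to 1.28) gave whole reads for 100.0% of values at a tolerance of 0.01, and hence depths of 22442118 to 40711826 reads.

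The 16124 genes whose mean reached 10 normalised counts went into limma 3.58.1 in R 4.3.3 on log2(normalised count + 1), 1 mean per group over all 16 libraries, with a mean-variance trend, 8 residual and 4.27 prior degrees of freedom and Benjamini-Hochberg adjustment over all genes tested at 0.05. Changes of low genes are understated on this scale. Intervals are 95% intervals. Recovered reads were tested with edgeR 4.0.16 (quasi-likelihood) and DESeq2 1.42.0 as alternatives, and at EB8 limma called 3697 genes between KO and WT, edgeR 3546 and DESeq2 4626. The limma fit was run on simulated counts to check the code, with independent libraries and 1 dispersion for all genes. The libraries here are not independent, so that run does not measure the error of these tests. Same-numbered libraries deviated together (correlation over 0.1) in 6 of 6 pairs of KO groups (0.233 to 0.422) and 3 of 3 pairs of WT EB groups (0.523 to 0.605), but in 0 of 3 pairs of WT ES with a WT EB group and in 12 of 28 pairs over all groups. A replicate block within genotype, with an effect in KO, another in the WT EBs and none in WT ES, was therefore fitted for EB4 against ES and EB8 against ES in KO and for EB8 against EB5 in both genotypes. Other alternatives changed the pseudocount, the filter, the scaling, the samples fitted, the replicate block and the threshold, or left out each library in turn.

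The 10 genes and all lists were chosen with earlier results of these data known. Named beside them were genes of the metabolic and hypoxia lists past the threshold between KO and WT at EB8, Gapdh, Pgk1, Pkm2 and Hif1a, and the 5 genes most like the gene of widest range by the correlation of group means. Exon lengths and positions are from GENCODE on NCBIM37 and promoters from RefSeq on GRCm38.p6. Pkm, Mpc1 and Mpc2 were found as Pkm2, Brp44l and Brp44.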

Additional observations from a re-analysis of the deposited data

How the results depend on the processing

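Of 110 results for single genes under all alternatives (1730 values), 1552 kept their direction and side of the threshold, 55 lost a call (38 on leaving out 1 library), 43 gained one and 80 reversed, 0 of them a called result. Of 16 called results 3 were kept whichever library was left out, Slc2a3 at EB8 against EB5 in WT and Pfkl and Aldoc at EB4 against ES in WT. With 2 libraries a group, leaving out 1 assumes that the other varies like the remaining groups. Alternatives for EB4 against ES and EB8 against EB5 were chosen after seeing the data. Where not stated, the cause was not tested. Depth limited none of the 10 genes, whose lowest library held 188 normalised counts.

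Counts of the 10 genes called changed as follows. An adjusted p of 0.01 left 1 for KO against WT at EB8, 0 for EB8 against ES in WT, 2 and 0 for EB4 against ES in WT and KO and 1 for EB8 against EB5 in WT. Without the filter EB4 against ES in KO had 0 and EB8 against EB5 in WT 2. Upper-quartile rescaling, which moved the median of all genes by up to 0.16 on the log2 scale, gave 1 for EB8 against ES in KO and 1 for the interaction with EB8 against ES, and quantile normalisation gave 1, 1 and, for EB4 against ES in KO, 0. Fitting the compared groups only, with fewer samples to estimate the spread, left 0 for EB4 against ES in WT and in KO. Of all genes, 0 in WT and 23 in KO passed in that fit. edgeR called 2 for EB8 against ES in KO. DESeq2 called 1 for KO against WT at EB4, 2 for EB8 against ES in KO, 1 for the interaction and 9 for EB4 against ES in KO. Over all genes limma and DESeq2 called 0 and 469 between KO and WT in ES cells, 986 and 2077 at EB4, 700 and 1719 at EB5, 564 and 1668 for EB4 against ES in KO, and 119 and 661 for EB8 against EB5 in KO.

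The numbers pair the libraries within KO and within the WT EBs, but neither across genotypes nor for WT ES. With a replicate block of its own in KO and in the WT EBs, chosen after seeing the data, 5 genes were called for EB4 against ES in KO in place of 2, 2 for EB8 against ES in KO in place of 0, 1 for EB8 against EB5 in KO in place of 0 and 5 for EB8 against EB5 in WT in place of 4, and no other comparison was fitted in this way. The block over all 16 libraries called 1 gene for EB8 against ES in KO in place of 0 and 3 for EB4 against ES in KO in place of 2, and changed no other count. With the KO numbers exchanged, chosen after seeing the data, it called 1 for EB8 against ES in KO, 1 for the interaction and 4 for EB4 against ES in KO.

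Leaving out 1 library, the genes called ranged from 1 to 2 for KO against WT at EB8, 1 to 3 for EB8 against ES in WT, 0 to 2 in KO, 0 to 2 for the interaction, 2 to 6 for EB4 against ES in WT, 0 to 0 in KO, 1 to 2 for EB8 against EB5 in WT and 0 to 1 in KO. Log2 changes that reversed ranged, for KO against WT in ES cells, from -0.50 to 0.07 (Slc2a1), -0.33 to 0.16 (Slc2a3), -0.93 to 0.18 (Hk1), -0.53 to 0.28 (Hk2), -0.25 to 0.22 (Pfkl), -0.61 to 1.72 (Pfkp), -0.52 to 0.07 (Aldoa) and -0.74 to 1.11 (Ldhb). At EB4 they ranged from -0.85 to 0.07 (Slc2a1), -0.60 to 0.65 (Slc2a3) and -0.57 to 0.18 (Hk2). At EB5 they ranged from -0.66 to 0.06 (Slc2a1), -0.06 to 0.31 (Slc2a3), -0.23 to 0.28 (Hk1), -0.34 to 0.36 (Hk2), -0.51 to 0.25 (Aldoa) and -0.77 to 0.14 (Aldoc). At EB8 they ranged from -0.62 to 0.68 (Slc2a1), -0.55 to 0.14 (Hk1), -0.93 to 0.08 (Pfkl), -0.76 to 0.29 (Aldoa) and -0.67 to 1.08 (Aldoc). For EB8 against ES they ranged in WT from -0.18 to 0.93 (Hk1), -1.54 to 0.79 (Pfkp), -0.04 to 0.55 (Aldoa) and -1.68 to 0.17 (Ldhb), and in KO from -0.36 to 0.65 (Pfkl), -0.29 to 0.76 (Aldoa) and -0.54 to 0.53 (Ldha). For its interaction they ranged from -0.40 to 0.90 (Slc2a1), -0.38 to 0.72 (Hk1), -0.73 to 0.10 (Hk2), -0.92 to 0.09 (Pfkl), -1.36 to 0.97 (Pfkp), -0.54 to 0.51 (Aldoa), -1.39 to 0.37 (Aldoc) and -0.91 to 0.16 (Ldha). For EB4 against ES in WT Pfkp ranged from -0.76 to 1.57, and for EB8 against EB5 in KO Hk1 from -0.58 to 0.11.

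Other reversals were of small changes. For Ldha at EB8 against ES in KO the log2 change was 0.11 (upper quartile), 0.01 (TMM), 0.46 (quantile), 0.10 (edgeR) and 0.08 (DESeq2) in place of -0.01. The interaction with EB8 against ES was 0.18, 0.16, 0.12 and 0.11 for Aldoa (upper quartile, quantile, edgeR, DESeq2) and 0.14, 0.28 and 0.27 for Pfkp (quantile, edgeR, DESeq2). KO against WT was 0.03 for Aldoa at EB5 (quantile), -0.06 for Ldhb in ES cells and -0.10 for Slc2a3 at EB4 (edgeR and DESeq2 both), and EB4 against ES in WT was -0.01 for Pfkp (DESeq2).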
